A study of Mus musculus with 12 samples.

Results

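From the 55281 genes in the table of all genes, 8 genes of B cells and plasma cells were followed through gonadal white adipose tissue (GWAT) of mice with or without HOIP in adipocytes. They were picked by symbol: Ms4a1, Cd79a, Cd79b, Pax5, Cd22, Ighm, Jchain and Mzb1. All 8 passed the filter on low counts, and 7 of them are also in the protein-coding table. Ighm is the exception, since it is annotated as an immunoglobulin constant region gene.

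The tissue came from male mice aged 22 to 24 weeks that ate a control diet (CD, 14% fat) or a high-fat diet (HFD, 60% fat) for 16 weeks from 6 weeks of age. All animals carried floxed Hoip alleles (Hoip fl/fl), and the HoipA-KO animals also carried AdipoQ.Cre, whose promoter is active in adipocytes, so the deletion was placed in the fat cells of the tissue. Littermates without Cre served as WT. Each of the 4 groups (WT CD, HoipA-KO CD, WT HFD and HoipA-KO HFD) held 3 libraries, and each library was a pool of tissue from 3 mice, so the spread given below is between pools. Library 3 of the WT CD group stood apart, with 1250 CPM (read counts scaled to a common library total) of the sperm gene Prm1 against 0 to 28.3 in the other 11 libraries, and the tests below rest on 11 libraries without it unless 12 are named. WT CD library 2 held 12345 CPM of Crisp1, a gene of the epididymis, and HoipA-KO HFD library 1 held 1282. Totals ran from 30513500 to 60540260 estimated counts per library, so that 3 counts, the smallest number read as detection, corresponded to 0.0534 to 0.0987 CPM. Rnf31, the gene that encodes HOIP, was between 12.6 and 22.5 CPM in all 12 libraries and was not called on either diet, so the genotype could not be read from its level in whole tissue.

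B cells sense antigen through a membrane immunoglobulin paired with the signaling chains Ig-alpha (Cd79a) and Ig-beta (Cd79b). Pax5 is the transcription factor that keeps B cell identity, Ms4a1 encodes the surface protein CD20, and Cd22 encodes a sialic acid-binding lectin that dampens receptor signaling. When B cells become plasma cells they lose Pax5 and secrete antibody: Ighm encodes the constant region of IgM, Jchain the chain that joins IgM and IgA into polymers, and Mzb1 a chaperone of the endoplasmic reticulum that helps antibody assembly. Adipose tissue is home to innate-like B-1 cells, and in obese mice B cells accumulate in GWAT beside macrophages. In bulk tissue, fewer cells of a type and less RNA per cell cannot be told apart.

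The genes lie on separate chromosomes with the exception of Cd79a and Cd22, which are both on chromosome 7 (GRCm38, GENCODE M21). Cd79a (ENSMUSG00000003379) spans chr7:24897381-24902197 on the plus strand and Cd22 (ENSMUSG00000030577) spans chr7:30865402-30880342 on the minus strand. Pax5 (ENSMUSG00000014030) is at chr4:44524757-44710487, Jchain (ENSMUSG00000067149) at chr5:88519809-88527891, Cd79b (ENSMUSG00000040592) at chr11:106311341-106314762, Ighm (ENSMUSG00000076617) at chr12:113418558-113422730 and Ms4a1 (ENSMUSG00000024673) at chr19:11249675-11266241, all on the minus strand. Ms4a1, Pax5 and Cd22 overlap antisense genes, whose reads can be told apart only where strand was used in counting, and Pax5 and Mzb1 overlap a gene on their own strand, so reads from the shared bases could be assigned to either.

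RefSeq promoters (GRCm38.p6, 250 bases before to 50 after the start) were at hand for 4 of the 8 members. The pair on chromosome 7 is shown because the levels of these 2 genes parted most clearly below. Capitals mark the only match among 4 motifs searched on both strands: the octamer ATGCAAAT, the EBF palindrome (TCCC, any 2 bases and GGGA), and the ETS-family sites GAGGAAGT and CCGGAAGT.
Cd79a, chr7:24897247-24897546, plus strand: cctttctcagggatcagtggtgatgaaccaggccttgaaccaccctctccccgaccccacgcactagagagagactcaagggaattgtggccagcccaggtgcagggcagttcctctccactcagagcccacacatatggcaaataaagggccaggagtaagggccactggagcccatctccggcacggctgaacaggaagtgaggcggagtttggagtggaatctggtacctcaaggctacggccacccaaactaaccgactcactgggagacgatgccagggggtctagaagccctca
Cd22, chr7:30878979-30879278, minus strand: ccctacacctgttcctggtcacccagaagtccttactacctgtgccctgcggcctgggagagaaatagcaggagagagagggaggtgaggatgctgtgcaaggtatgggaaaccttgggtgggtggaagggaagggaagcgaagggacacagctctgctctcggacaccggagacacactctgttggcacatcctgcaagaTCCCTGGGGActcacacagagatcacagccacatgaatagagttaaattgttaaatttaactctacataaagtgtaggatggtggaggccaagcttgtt
The Cd22 window held TCCCTGGGGA, which begins 49 bases before the RefSeq start, and the Cd79a, Pax5 and Jchain windows held none of the 4 motifs. Among 32817 promoters of the same length, 0.905% held the EBF palindrome, 1.74% the octamer, 3.20% GAGGAAGT and 3.89% CCGGAAGT. A match of letters is a description of the sequence and not a bound site.

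Divided by the merged exon length, Ighm was the most abundant member, with a median of 215 CPM per kb over the 12 libraries. Jchain followed with 8.87 CPM per kb, Cd22 with 3.20, Cd79b with 2.59, Cd79a with 1.84, Mzb1 with 1.05, Ms4a1 with 0.182 and Pax5 with 0.0707. On this scale the ranges of Cd79a (0.454 to 5.96 CPM per kb) and Cd79b (1.03 to 4.58) overlapped, as did those of Ms4a1 and Pax5, so neighbours in this order were not separated by more than their spread except for Ighm, whose lowest library (130 CPM per kb) exceeded the highest of Jchain (26.1).

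**Figure D1:**
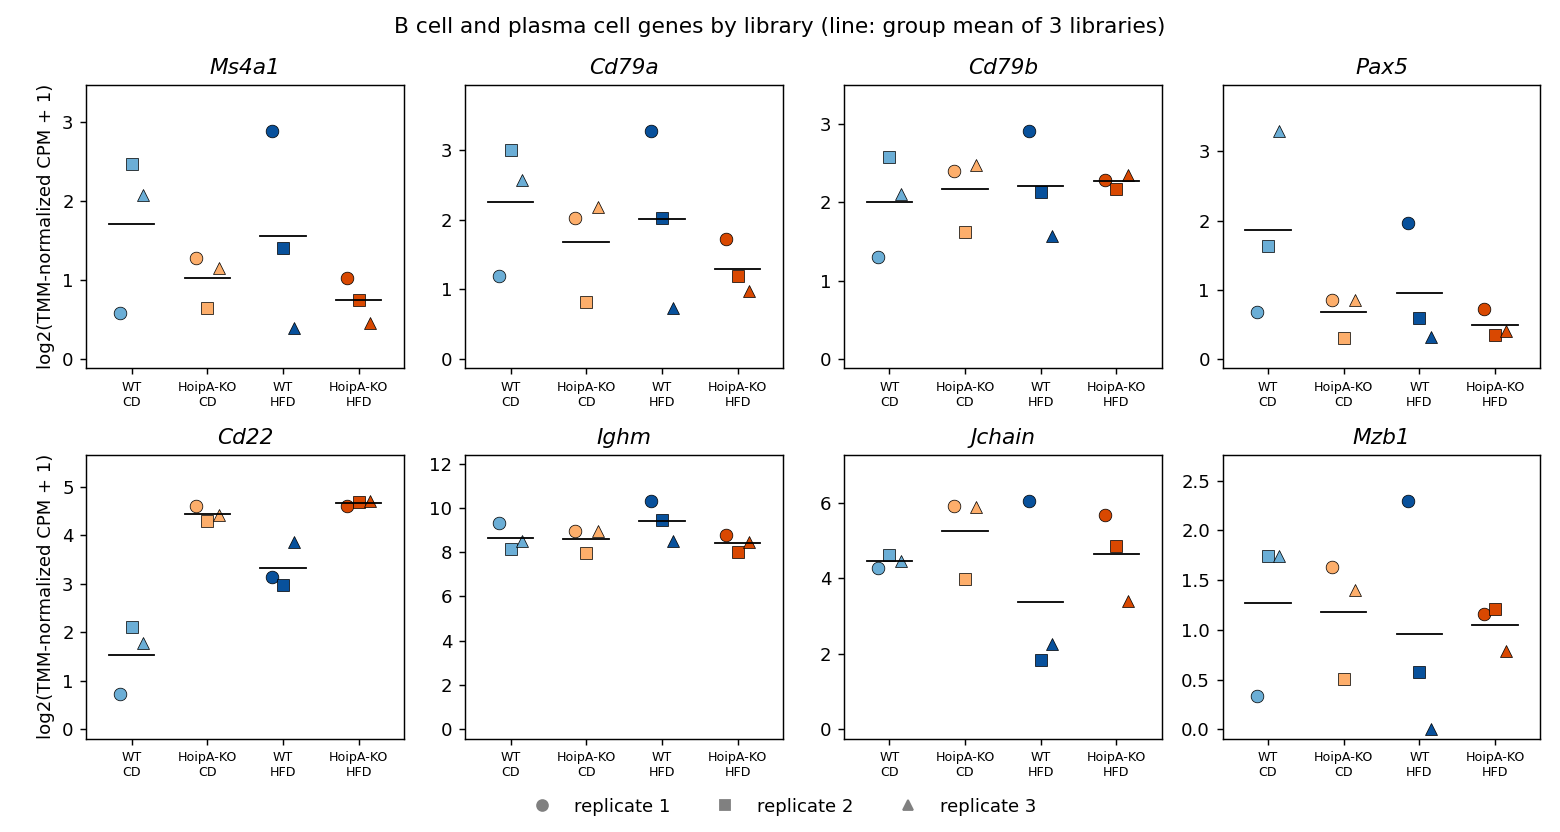
Level of each gene in every library, as log2(TMM-normalized CPM + 1), in 4 groups of 3 libraries; symbols mark the replicate number and the line the group mean. Cd22 is the gene whose HoipA-KO libraries all lie above the WT libraries of both diets, whereas the other 7 vary mainly between libraries of a group.

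The B cell receptor genes differed between libraries far more than between groups. Cd79a stood at 1.29, 6.98 and 4.92 CPM in WT CD libraries 1, 2 and 3, at 3.09, 0.773 and 3.54 CPM in HoipA-KO CD, at 8.69, 3.08 and 0.662 CPM in WT HFD and at 2.29, 1.28 and 0.979 CPM in HoipA-KO HFD. The groups overlapped, and the WT HFD group alone spanned 13.1-fold. Ms4a1 stood at 0.501, 4.53 and 3.22 CPM in WT CD, at 1.41, 0.570 and 1.22 CPM in HoipA-KO CD, at 6.38, 1.64 and 0.310 CPM in WT HFD and at 1.04, 0.676 and 0.374 CPM in HoipA-KO HFD. The same 3 WT libraries, CD 2, CD 3 and HFD 1, held its highest values.

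Cd79b was the steadiest of the receptor genes. Its libraries lay at 1.48, 4.98 and 3.33 CPM in WT CD, at 4.28, 2.08 and 4.58 CPM in HoipA-KO CD, at 6.55, 3.40 and 1.97 CPM in WT HFD and at 3.89, 3.51 and 4.10 CPM in HoipA-KO HFD. Its HoipA-KO HFD libraries lay inside the range of WT HFD. Pax5 had the lowest median of the 8 over the 12 libraries (0.626 CPM), at 0.597, 2.11 and 8.84 CPM in WT CD, 0.816, 0.239 and 0.814 CPM in HoipA-KO CD, 2.90, 0.510 and 0.248 CPM in WT HFD and 0.655, 0.270 and 0.321 CPM in HoipA-KO HFD. Its highest value fell in WT CD library 3, the library with the sperm transcripts, where Ms4a1 and Cd79a were not at their highest. Whether B cells supplied these Pax5 counts was not tested.

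Cd22 departed from this pattern. It stood at 0.668, 3.30 and 2.45 CPM in WT CD, at 23.5, 18.6 and 20.5 CPM in HoipA-KO CD, at 7.80, 6.89 and 13.7 CPM in WT HFD and at 23.4, 24.7 and 25.3 CPM in HoipA-KO HFD. Every HoipA-KO library lay above every WT library of the same diet, and every WT HFD library above every WT CD library. Differences between the 4 groups took up 92.3% of the variance of log2(CPM + 1) of Cd22 over the 12 libraries, against 3.33% (Mzb1) to 38.6% (Pax5) for the other 7 members and a median of 47.2% over all genes tested.

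To see what adipocyte HOIP deficiency did to these genes on CD, HoipA-KO CD (3 libraries) was compared with WT CD (2 libraries). Cd22 rose by a log2 fold change of 3.39 ± 0.58 (SE; edgeR quasi-likelihood test, adjusted p = 0.00215), with a mean of 20.9 ± 2.44 CPM (SD, n = 3) against 1.98 ± 1.86 (SD, n = 2). It was the 1 member of 8 that was called, where 37.7% of the 18427 genes tested were called at an adjusted p under 0.05 and 18.9% were called higher. It was also the 1 member whose libraries did not overlap between the groups; 28.2% of all genes lay without overlap in that direction. With all 12 libraries Cd22 rose by 3.28 (edgeR adjusted p = 0.00115), where 34.6% of genes were called.

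The other 7 members did not pass the test on CD. The log2 fold changes were -1.23 ± 1.10 (SE) for Ms4a1, -0.74 ± 1.00 for Cd79a, 0.18 ± 0.60 for Cd79b, -1.11 ± 0.98 for Pax5, -0.16 ± 0.54 for Ighm, 1.08 ± 1.27 for Jchain and 0.09 ± 1.51 for Mzb1, with adjusted p of 0.395 or more (edgeR). Of these 7 estimates, 4 lay below 0 and 3 above, and the median over all 8 was -0.03, beside -0.06 over all genes. Leaving out WT CD library 2 as well as library 3 turned Ms4a1 to 1.09 and Cd79a to 0.94. Without library 3, the sign of these estimates thus rested on library 2, which also held the epididymis transcripts. Library 3, which held the sperm transcripts, was at 3.22 CPM of Ms4a1 and 4.92 CPM of Cd79a. The fit of all 12 libraries includes it and gave -1.36 for Ms4a1 and -0.83 for Cd79a, neither of them called. With all 12 libraries Pax5 moved from -1.11 to -2.62 (edgeR adjusted p = 0.0852), WT CD library 3 being the one with 8.84 CPM.

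On HFD no member was called between HoipA-KO and WT, where 11.8% of genes were called and 4.2% were called higher. Cd22 gave a log2 fold change of 1.37 ± 0.45 (SE) with an adjusted p of 0.0752 (edgeR), at 24.4 ± 0.953 CPM (SD, n = 3) in HoipA-KO and 9.45 ± 3.68 CPM (SD, n = 3) in WT. Its libraries did not overlap, as was so for 20.8% of all genes in that direction. The call depended on the fit: adjusted p was 0.0227 with only these 2 groups, 0.0169 by DESeq2 and 7.43e-05 by voom with quality weights on 12 libraries, whereas it was 0.128 by edgeR on all 12, where 2.89% of genes were called.

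Estimates for the B cell genes on HFD lay below 0 and did not pass the test: -1.99 ± 1.04 (SE) for Ms4a1, -1.44 ± 0.93 for Cd79a, -1.52 ± 0.92 for Pax5 and -0.05 ± 0.53 for Cd79b. Ighm was at -1.15 ± 0.49 (unadjusted p = 0.0412, adjusted p = 0.141, edgeR), Mzb1 at -0.41 ± 1.36 and Jchain at 0.29 ± 1.10. The median of the 8 was -0.78, beside 0.06 over all genes. Without WT HFD library 1, Ms4a1 was at -0.49, Cd79a at -0.30, Pax5 at 0.13, Ighm at -0.60, Mzb1 at 2.13 and Jchain at 3.20, none of them called (adjusted p = 0.0817 for Jchain, edgeR).

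**Figure D2:**
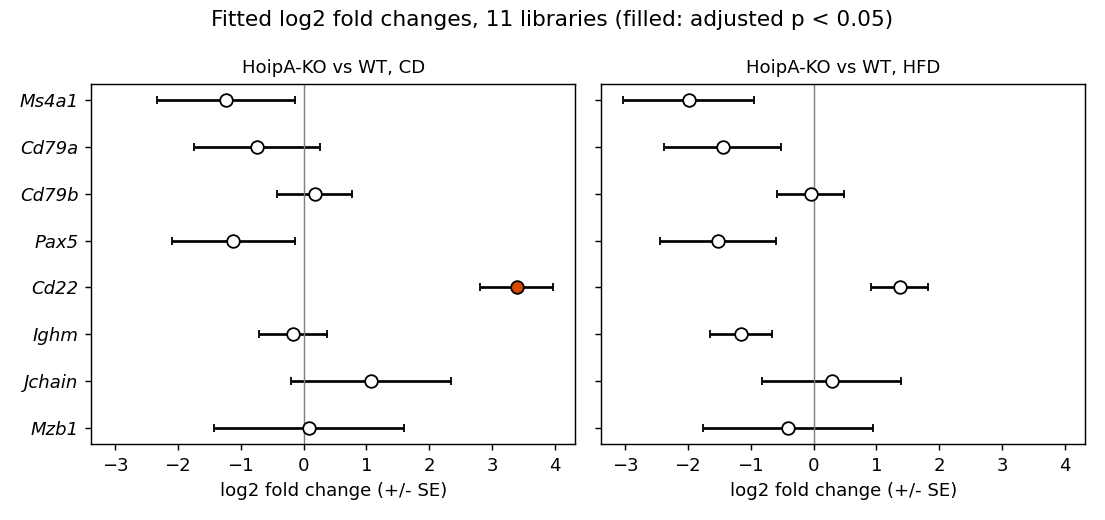
Fitted log2 fold change of each gene, HoipA-KO over WT, on CD (left) and HFD (right), from the 11-library fit; bars are 1 SE and a filled point marks an adjusted p under 0.05. Cd22 on CD (3.39) is the filled point, and most of the other bars cross or approach 0.

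Diet was compared within each genotype. In WT mice, Cd22 rose by 2.25 ± 0.55 (SE) on HFD (edgeR, adjusted p = 0.0274), where 14.8% of genes were called and 9.35% were called higher, and its libraries did not overlap, as was so for 24.6% of genes in that direction. This call was lost with the replicate number as a block (adjusted p = 0.0660), with only these 2 groups (0.174) and by voom (0.120). It was also lost without WT HFD library 3 (0.107), HoipA-KO CD library 1 (0.0574) or 3 (0.0538), or HoipA-KO HFD library 3 (0.0549). Ighm stood at 780 ± 464 CPM (SD, n = 3) in WT HFD and 458 ± 253 CPM (SD, n = 2) in WT CD, a log2 fold change of 0.77 ± 0.55 that was not called (adjusted p = 0.372, edgeR). The other 6 members had larger adjusted p. In HoipA-KO mice no member was called, Cd22 differing by 0.23 ± 0.44, and edgeR called 0% of all genes. At an unadjusted p under 0.05, 415 of all genes and 0 members stood out in that comparison, and DESeq2 called 7 genes.

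Whether the genotype difference itself depended on diet was tested with an interaction term. For Cd22 the difference on HFD was smaller than on CD by 2.02 ± 0.69 on the log2 scale (estimate -2.02), with an adjusted p of 0.127 by edgeR and 0.0456 by DESeq2. No member was called by edgeR, where 3.91% of all genes were called. The genotype and diet comparisons share libraries, so their values for Cd22 are not independent of each other.

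Cd22 and Cd79a, both on chromosome 7 and both used as B cell markers, can be set beside the macrophage markers Adgre1, Cd68, Csf1r, C1qa, Mrc1 and Lyz2. The summed level of these 6 was 392 to 583 CPM in WT CD, 1695 to 4960 in WT HFD, 8206 to 11721 in HoipA-KO CD and 6135 to 10123 in HoipA-KO HFD. All 6 were called higher in HoipA-KO on CD, beside 18.9% of all genes, and 2 of 6, Cd68 and C1qa, on HFD, beside 4.2%. Within WT HFD the library with the most macrophage RNA (library 3, 4960 CPM) had the highest Cd22 (13.7 CPM) and the lowest Cd79a (0.662 CPM). Library 2 of that group held more macrophage RNA than library 1 (3015 against 1695 CPM) but less Cd22 (6.89 against 7.80 CPM). HoipA-KO CD library 2 had the highest macrophage sum of all (11721 CPM) and the lowest Cd22 of the HoipA-KO libraries (18.6 CPM). Lyz2 alone gave 7756 CPM of that sum. Adgre1, Csf1r and Mrc1 were also highest there, and Cd68 was highest in HoipA-KO HFD library 2 (1410 CPM). C1qa, at 435 CPM in HoipA-KO CD library 2, was lowest there among the HoipA-KO libraries. The adipocyte markers moved against the macrophage markers, with 5 of 6 lower in HoipA-KO on CD and 6 of 6 on HFD. Of all 18427 genes, 3456 were called lower on CD and 1405 on HFD. The part of the macrophage and adipocyte changes in the level of Cd22 was not tested.

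**Figure D3:**
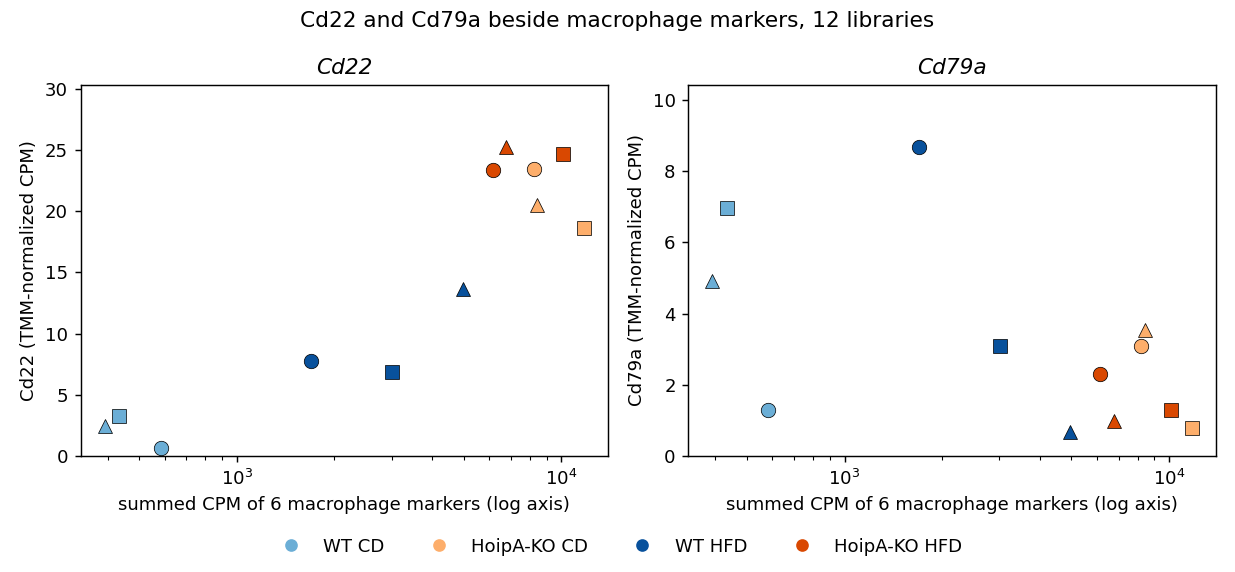
Cd22 (left) and Cd79a (right), in TMM-normalized CPM, against the summed CPM of 6 macrophage markers on a log axis, 1 point per library with circles, squares and triangles for replicates 1, 2 and 3. Cd22 is at 0.668 to 3.30 CPM in the 3 WT CD libraries with 392 to 583 CPM of macrophage markers and at 18.6 to 25.3 CPM in the 6 HoipA-KO libraries, while Cd79a is highest in WT HFD library 1.

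The genes most like a pattern over the 12 libraries were found by Pearson correlation of log2(CPM + 1) among 15748 genes. The 8 members and the immunoglobulin variable segments were left out of this search. It is a description, since all genes share the same libraries. For the mean of Ms4a1, Cd79a, Cd79b, Pax5 and Cd22 the closest genes included Spib (r = 0.920), a B cell transcription factor, H2-DMb2 (0.916), which serves antigen presentation, Clca3a1 (0.895) and Pou2af1 (0.858), the B cell co-activator of octamer factors. A look at Cd22 alone, added after its values were seen, gave Npl (0.976), Tmem37 (0.971), Mmgt2 (0.971), Blnk (0.970) and Chst3 (0.970). The mean of the other 4 B cell genes, also added later, was followed closely by Pou2af1 (r = 0.951), with Cxcl13, the chemokine that draws B cells into follicles, at 0.900.

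Ms4a1 and Pax5 ordered the libraries nearly as Cd79a did, and Cd79b less closely. Over 12 libraries, Cd79a and Ms4a1 had Pearson's r = 0.966 (permutation p = 1e-05, the smallest that 100000 permutations can give, adjusted 5e-05) and Spearman's rho = 0.937 (permutation p = 3e-05, adjusted 0.0001), and r = 0.951 without the 2 libraries farthest from the median of Cd79a. For Cd79a and Cd79b, r was 0.757 (permutation p = 0.00408, adjusted 0.00816) and rho 0.685 (permutation p = 0.0171, adjusted 0.0246), falling to 0.590 without those 2 libraries. For Cd79a and Pax5, r was 0.753 (permutation p = 0.0023, adjusted 0.00575) and rho 0.937 (permutation p = 2e-05, adjusted 0.0001), with 0.707 without the 2 and 0.940 without WT CD library 3. For Cd79a and Mzb1, r was 0.865 (permutation p = 0.00037, adjusted 0.00123) and rho 0.881 (permutation p = 0.00043, adjusted 0.00107), with 0.763 without the 2. Taken as deviations from the group means, r was 0.963 for Ms4a1, 0.960 for Cd79b, 0.723 for Pax5 and 0.949 for Mzb1, so the relation was present within groups. These are 4 of 10 relations computed. Cd22 was left out of them because its values fell into separate clusters.

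Jchain, Mzb1 and Ighm also varied widely within groups. Jchain stood at 18.4, 23.8 and 20.9 CPM in WT CD, at 60.2, 14.7 and 58.4 CPM in HoipA-KO CD, at 65.8, 2.55 and 3.83 CPM in WT HFD and at 50.0, 28.1 and 9.56 CPM in HoipA-KO HFD. WT HFD held both the highest and the 2 lowest libraries, a span of 25.8-fold. Mzb1 (ENSMUSG00000024353, chr18:35647267-35649367, minus strand) stood at 0.263, 2.34 and 2.34 CPM in WT CD, at 2.09, 0.423 and 1.65 CPM in HoipA-KO CD, at 3.92, 0.491 and 0 CPM in WT HFD and at 1.24, 1.31 and 0.730 CPM in HoipA-KO HFD. The 0 in WT HFD library 3 allows a level of up to 0.0621 CPM. Ighm stood at 637, 279 and 367 CPM in WT CD, at 488, 245 and 494 CPM in HoipA-KO CD, at 1277, 703 and 360 CPM in WT HFD and at 443, 260 and 349 CPM in HoipA-KO HFD. The groups overlapped for all 3 genes.

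Jchain tracked Igkc, the constant region of the kappa light chain, which is not a member and ran from 12.2 to 304 CPM. Over 12 libraries r was 0.975 (permutation p = 1e-05, the smallest possible, adjusted 5e-05) and rho 0.979 (permutation p = 1e-05, adjusted 0.0001), with 0.931 without the 2 libraries farthest from the median of Igkc. Ighm did not follow Igkc so closely. For Igkc and Ighm, r was 0.141 (permutation p = 0.665, adjusted 0.665) and rho 0.301 (permutation p = 0.342, adjusted 0.342), and r was 0.544 without the 2. In WT HFD library 2, Ighm was the second highest of all at 703 CPM while Igkc was the lowest at 12.2 CPM and Jchain the lowest at 2.55 CPM. The ratio of Ighm to Igkc counts was 57.5 there and 21.9 in WT HFD library 3, against 1.58 to 8.02 in the other 10 libraries. For Cd79a, r with Jchain was 0.481 (permutation p = 0.112, adjusted 0.125) and with Ighm 0.482 (permutation p = 0.113, adjusted 0.125), with rho of 0.622 (permutation p = 0.0355, adjusted 0.0444) and 0.497 (permutation p = 0.105, adjusted 0.116). Without the 2 libraries farthest from the median of Cd79a r was 0.198 and 0.134. For Igkc and Cd79a, r was 0.551 (permutation p = 0.064, adjusted 0.0915) and rho 0.685 (permutation p = 0.0172, adjusted 0.0246), with 0.760 without the 2. Taken as deviations from the group means, r was 0.975 for Igkc with Jchain, 0.612 for Igkc with Ighm, 0.818 for Igkc with Cd79a, 0.746 for Cd79a with Jchain and 0.481 for Cd79a with Ighm.

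**Figure D4:**
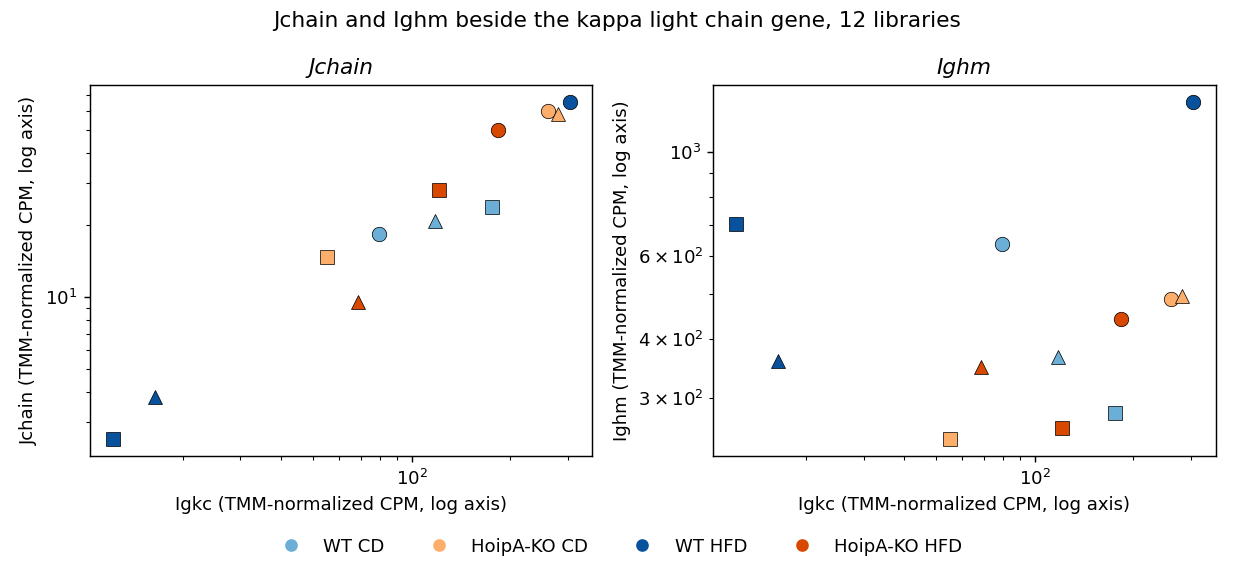
Jchain (left) and Ighm (right) against Igkc, all in TMM-normalized CPM on log axes, 1 point per library with circles, squares and triangles for replicates 1, 2 and 3. Jchain rises with Igkc across the libraries (r = 0.975 on log2 values), while Ighm is at 703 CPM in the library with the lowest Igkc (12.2 CPM).

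The mean of Ighm, Jchain and Mzb1 was followed most closely by Iglc1 (r = 0.934) and Igkc (0.905), constant regions of the lambda and kappa light chains, then Lax1 (0.893), a lymphocyte adaptor, Blk (0.830), a B cell kinase, and Ighg1 (0.814), the constant region of IgG1. All 5 are genes of lymphocytes. Ighm alone, a pattern added after its values were seen, was closest to Fstl3 (0.924), Hspb2 (0.919), Hspb1 (0.903), Nrip2 (0.898) and Gm27177 (0.897). None of these is an immunoglobulin constant region gene, and the variable segments were not searched.

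Class switching replaces the IgM constant region with that of IgG, IgE or IgA, so the isotype genes were read as shares. Ighm made up 98.9%, 72.9% and 88.9% of heavy chain constant region counts in WT CD, 80.4%, 94.2% and 69.3% in HoipA-KO CD, 90.3%, 98.8% and 97.0% in WT HFD and 78.1%, 68.8% and 94.1% in HoipA-KO HFD. The groups overlapped on each diet. In WT HFD libraries 2 and 3 heavy chain constant counts were 48.8 and 22.0 times the light chain ones, against 1.92 to 6.82 in the others. Whether the share of Ighm reflected class switching there was not tested. The mean difference over the diets, HoipA-KO minus WT, was -9.82 percentage points (5 WT and 6 HoipA-KO libraries), which did not pass a two-sided exact permutation test within diets (p = 0.21, where 0.005 is the smallest possible). With all 12 libraries the difference was -10.3 points (exact permutation p = 0.145). The share of Igkc among light chain constant counts was 83.8% to 97.5% and differed by 3.78 points (exact permutation p = 0.185).

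The switched isotypes differed in kind from pool to pool. Igha, the constant region of IgA, stood at 1.43, 8.53 and 5.98 CPM in WT CD, at 49.4, 4.41 and 124 CPM in HoipA-KO CD, at 28.9, 1.60 and 7.05 CPM in WT HFD and at 70.5, 50.7 and 7.32 CPM in HoipA-KO HFD. Of the 6 HoipA-KO libraries, 4 lay above every WT library, yet the others did not, and the test was not passed on CD (log2 fold change 3.57 ± 1.66 SE, edgeR adjusted p = 0.115) or HFD (1.79 ± 1.30, adjusted p = 0.369). In WT CD library 2, 68.9% of the switched counts came from Ighg3, and in WT CD library 3 53.8% came from Ighg2b, whereas Ighg1 gave 39.0% in WT HFD library 1. Igha supplied 57.0% of switched counts in HoipA-KO CD library 3 and 58.1% in HoipA-KO HFD library 1. Of the 10 constant region genes tested other than Ighm, 0 were called on CD and 0 on HFD by edgeR; Igkc gave 0.64 ± 1.25 on CD and 0.17 ± 1.10 on HFD.

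**Figure D5:**
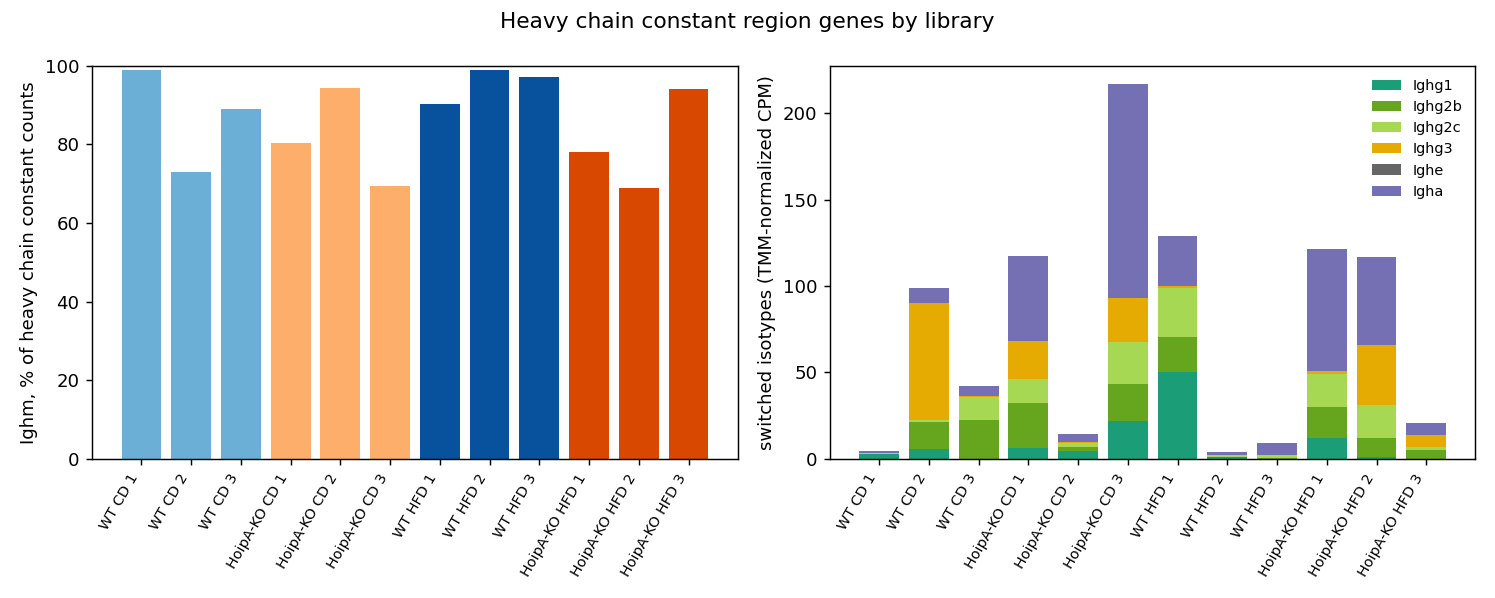
Left, Ighm as a percentage of heavy chain constant region counts per library; right, summed level of the switched isotypes in TMM-normalized CPM per library, stacked by gene. Ighm makes up 68.8% to 98.9% in every library, and the switched sum runs from 3.74 CPM in WT HFD library 2 to 217 CPM in HoipA-KO CD library 3.

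Variable segments were counted as a rough sign of how many different antibody genes were in use. The number detected also depends on the amount of segment RNA and on the depth of the library. The segment RNA was 12.9 CPM in WT HFD library 3, 153 CPM in HoipA-KO CD library 3 and 154 CPM in WT HFD library 1. WT HFD library 1 had the lowest total (30513500 estimated counts). Its Igkv segments held 3188 counts, against 4983 in HoipA-KO CD library 3. Of 183 Ighv and 160 Igkv genes, and the Iglv genes beside them, 55, 109 and 109 had at least 3 counts in WT CD, 130, 80 and 143 in HoipA-KO CD, 101, 42 and 34 in WT HFD and 130, 117 and 77 in HoipA-KO HFD. The 2 lowest libraries, WT HFD 2 and 3, were also those with the least Igkc and Jchain. The most abundant Ighv segment took 9.86% to 29.3% of Ighv counts and the most abundant Igkv segment 10.3% to 31.1% of Igkv counts, so in no library did a segment of these families hold most of the counts. Some segments resemble each other, and reads could be split between these.

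Other genes of the lineage were read by list, and the lists split in 2 ways. Over all genes tested, 18.9% were called higher on CD and 4.2% on HFD. Among 15 other B cell identity genes tested, Cd37 and Cd72, a tetraspanin and an inhibitory receptor that myeloid cells also express, rose on CD (3.61 ± 0.34 and 3.29 ± 0.76, edgeR adjusted p = 0.000452 and 0.00860) and Ebf1, a B cell factor that adipocyte precursors also express, fell (-1.53 ± 0.33, adjusted p = 0.00673). The other 12 were not called on CD, and the median of the 15 was -0.43. On HFD Cd37 rose (1.16 ± 0.26, adjusted p = 0.0259) and Ebf1 fell (-1.25 ± 0.31, adjusted p = 0.0342), with a median of -0.89.

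Genes that relay the receptor's signal went the way of Cd22. Of 12 tested, 11 rose on CD and 0 fell, with a median of 3.83, and 2 rose on HFD with a median of 1.03. The kinase Syk rose by 4.20 ± 0.55 (edgeR adjusted p = 0.000677), the adaptors Pik3ap1 by 4.50 ± 0.57 (0.000606) and Blnk by 4.47 ± 0.62 (0.000867), and the kinase Lyn by 1.89 ± 0.27 (0.000977) on CD. On HFD the called genes, named after their values were seen, were Fcgr2b (1.02 ± 0.20, adjusted p = 0.0172), an inhibitory Fc receptor, and Vav1 (1.22 ± 0.30, 0.0335). Most of these genes are also used by macrophages, whose 6 markers had medians of 4.04 on CD and 1.10 on HFD, and the share of each cell type was not tested.

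Of 13 other plasma cell genes, 6 rose on CD and 2 on HFD, with 0 lower and medians of 0.82 and 0.63. Beside these counts and those of the cytokines below, 18.9% of all genes were called higher on CD and 4.2% on HFD. Sdc1, which encodes the plasma cell marker CD138 and is also made by macrophages and epithelia, rose on CD (3.24 ± 0.41, edgeR adjusted p = 0.000622) and HFD (1.44 ± 0.33, 0.0266), Slamf7 rose on CD (4.62 ± 0.62, 0.000738), as did Tnfrsf13b, a receptor for BAFF and APRIL (2.41 ± 0.29, 0.000519), and Edem2 (0.81 ± 0.23, 0.0217). The other gene called on HFD was Fkbp11, named after its value was seen (1.08 ± 0.29, adjusted p = 0.0438). The lowest HoipA-KO library held 142 CPM of Sdc1 and the highest WT library 98.1 CPM, an order that Jchain, Mzb1 and Igkc did not share. Among 8 cytokines and chemokines that act on B cells, 5 rose on CD and 2 on HFD: Tnfsf13, which encodes the plasma cell survival factor APRIL, by 3.12 ± 0.42 on CD (0.000745) and 1.26 ± 0.33 on HFD (0.0395), Il10 by 2.93 ± 0.47 (0.00148) and 1.47 ± 0.37 (0.0358), and on CD Cxcl12 by 0.67 ± 0.23 (0.0421), Tnfsf13b, which encodes BAFF, by 0.95 ± 0.33 (0.0467) and Il6, named after its value was seen, by 2.37 ± 0.78 (0.0383).

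Markers of other cells and of neighbouring tissue were read the same way. Over all genes, 18.9% were called higher on CD and 4.2% on HFD, and 3456 of 18427 were called lower on CD. On CD, the T cell and lymphoid lists did not exceed the share called higher. Of 8 T cell markers, Cd4 alone was called, on CD (2.27 ± 0.54, edgeR adjusted p = 0.00991) and HFD (1.87 ± 0.45, 0.0330), and the summed T cell level was 9.07 to 15.1 CPM in WT CD, 16.3 to 25.1 in WT HFD, 10.4 to 29.2 in HoipA-KO CD and 25.4 to 29.2 in HoipA-KO HFD. Of 8 genes of lymph nodes and lymphoid stroma, Ccr7 alone rose, on CD (2.65 ± 0.50, 0.00323), and the sum ran from 9.00 CPM in WT HFD library 3 to 124 CPM in WT HFD library 1, the libraries with the lowest and the highest Cd79a. Between these ends the order differed. HoipA-KO CD library 3 had a sum of 107 CPM with Cd79a at 3.54 CPM, and WT CD library 3 one of 39.5 CPM with Cd79a at 4.92 CPM. Of 6 plasmacytoid dendritic cell markers, Irf8 (2.89 ± 0.25, 0.000452) and Cd300c (2.63 ± 0.71, 0.0171) rose and Siglech fell (-1.29 ± 0.34, 0.0157) on CD, with 0 called on HFD. Cd300c was near the floor, with 1 and 2 counts in WT CD libraries 1 and 2 and 7 to 14 in HoipA-KO CD. Of 10 epididymis and testis genes, 6 were called lower in HoipA-KO on CD (6 of the 8 tested with all 12 libraries) and 0 were called on HFD. These genes summed to 14973 and 7151 CPM in WT CD libraries 2 and 3, which were high in B cell genes, but to 6.68 CPM in WT HFD library 1, which was higher still, and the part of the neighbouring tissue in these values was not tested. Red cell genes, a sign of retained blood, summed to 500 to 2340 CPM, were called lower in HoipA-KO on CD (5 of 5, but 1 of 5 with all 12 libraries) and were highest in WT CD library 2, and mucosal epithelium genes reached 916 CPM in the WT CD group with 0 called in either genotype comparison.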

How the data were processed

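Poly(A)-selected, stranded RNA-seq libraries of GWAT from 4 groups of 3 pools were analysed. The deposited gene tables hold expected counts that the authors made with Trim Galore 0.6.7, STAR 2.7.10a and Salmon 1.5.2 in the nf-core RNA-seq pipeline. The build named in the labels is GRCm38, and 51948 of the 55281 gene IDs matched GENCODE M21. Other deposited tables hold the authors' fold changes, p-values and normalized values and were not used.

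Expected counts were rounded and fitted in 1 model of the 4 groups with edgeR 4.0.16 (filterByExpr, TMM, quasi-likelihood F-test, R 4.3.3), p-values being adjusted by Benjamini-Hochberg across the whole table (threshold 0.05). The standard error of a log2 fold change is its size divided by the square root of F. The authors left WT CD library 3 out of their comparisons, and so did the main fit. Levels are CPM with TMM factors of all 12 libraries, and a log2 level adds 1 CPM. Alternatives used DESeq2 1.42.0 and voom of limma 3.58.1, other scalings and filters, the protein-coding table, a replicate block and leaving out each library. Replicate numbers, which the labels do not tie to a litter or day, were read as pairs only between the HoipA-KO groups, from the correlation of their deviations from group means. Shares and correlations were tested by permutation in Python 3.11.15 with scipy 1.17.1. Tested on simulated data for the CD genotype comparison (18037 genes), the edgeR fit recovered 52.5% of genes changed 4-fold and 99.0% of those changed 16-fold. Every simulated gene had the same dispersion. The recovery therefore need not hold for members that varied more, such as Mzb1 (SE 1.51 on CD). Genes beyond the members were named by a rule: from each list at most 4 called genes with the highest mean CPM, Igha and Igkc always, and the 5 genes most like each pattern among those with a mean of at least 1 CPM. Some genes this rule names are not reported here. The members and lists were chosen with earlier results of these data known. Counting limits cover counting error only, and p-values measure the spread between pools.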

Additional observations from a re-analysis of the deposited data

How the results depend on the processing

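On CD, Cd22 was the 1 member called under every alternative run, with log2 fold changes of 2.66 to 4.97 when single libraries were left out. On HFD the number of members called went from 0 to 2 by voom with quality weights on all 12 libraries (Cd22, and Ighm at -1.01, adjusted p = 0.0192), to 1 with only the 2 groups compared and to 1 by DESeq2, and was 0 to 1 when libraries were left out, being 1 without WT CD library 1 or 2. For the diets in WT mice it went from 1 to 0 by voom, to 0 with the replicate block and to 0 with only the 2 groups, and was 0 to 1 when libraries were left out. For the interaction it went from 0 to 1 by DESeq2. The cause was not tested.

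The signs of uncalled members were unstable. On CD, Mzb1 turned from 0.09 to -0.085 in the protein-coding table and to -0.25 with 12 libraries, and Ighm to 0.37 by voom, while Pax5 moved to -2.62 with 12 libraries. Leaving out libraries gave -2.08 to 1.09 for Ms4a1, -1.49 to 0.94 for Cd79a, -0.45 to 1.30 for Cd79b, -1.75 to 0.065 for Pax5, -0.63 to 0.55 for Ighm and -0.75 to 2.39 for Mzb1. On HFD, Cd79b turned to 0.05 with library sizes alone and to 0.22 by voom, and Mzb1 to 1.21 by voom and to 0.21 with the replicate block. Leaving out libraries gave -0.37 to 0.51 for Cd79b, -2.01 to 0.13 for Pax5, -0.34 to 3.20 for Jchain and -1.001 to 2.13 for Mzb1. Among 428 further values of members not printed singly, 62 changed sign and 0 were called.

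The difference in the share of Igkc was 2.12 to 5.55 percentage points and that of Ighm -16.3 to -3.32 when libraries were left out, and the share of Igkc passed the exact permutation test without WT HFD library 3. Counting segments with at least 10 counts lowered the mean number to 57.7 (WT CD), 32.7 (WT HFD) and 71.0 (HoipA-KO HFD), and without WT HFD library 1 the mean of that group fell from 59.0 to 38.0, with a range of 38.0 to 71.5, an alternative chosen after seeing the data.

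Deviations of samples with the same replicate number correlated at r of -0.375 to 0.508 (median 0.048, against a median of -0.002 for other pairs). Between HoipA-KO CD and HoipA-KO HFD all 3 pairs were above 0.1 (up to 0.508), so the numbers were read as pairs in that diet comparison, where the replicate block left 0 members called and Cd22 at 0.20. In the other group pairs at least 1 pair was below 0.1, and the numbers were not read as pairs. Libraries with unlike numbers reached r of 0.433, so the pairing of the HoipA-KO groups is not established. Paired by number all the same, HoipA-KO with WT of the same diet, the share of Ighm differed by -8.47 points (exact permutation p = 0.375). That of Igkc differed by 3.43 points (exact permutation p = 0.25). The smallest p possible in these paired tests was 0.0625, so they could not pass at 0.05 and decide nothing. The number of genes called depended on the tool: on HFD it was 2179 by edgeR, 523 with all 12 libraries, 4410 by DESeq2 and 7755 by voom. For the diets in WT mice it was 2731, 2745, 4551 and 1232, for the interaction 721, 496, 2350 and 113, on CD 6947, 6248, 8160 and 4274, and for the diet effect in HoipA-KO 0, 0, 7 and 9. Members near 1 CPM are limited by depth and by 2 or 3 pools per group.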

Other observations

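Ighv11-2 and Igkv14-126, a pair known from B-1 cells that bind phosphatidylcholine, were singled out after their values were seen. Ighv11-2 was the most abundant Ighv segment in 4 of 12 libraries and Igkv14-126 the most abundant Igkv segment in 3. The 3 libraries shared by both were HoipA-KO CD 1 (23.6% of Ighv and 13.6% of Igkv counts), WT HFD 2 (18.7% and 16.9%) and HoipA-KO HFD 3 (12.8% and 10.7%). They belonged to 3 groups. In HoipA-KO HFD library 1 the same segments made up 1.08% and 1.10%.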
